A study of Mus musculus with 9 samples.

Results

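The vascular growth factor and angiopoietin systems are represented here by 10 genes, chosen by name: 5 receptors (Kdr, Flt1, Flt4, Tek and Tie1) and 5 ligands (Vegfa, Vegfc, Pgf, Angpt1 and Angpt2), of 19938 genes measured. Each of the 10 had 1 probe set that the platform annotation gave to that gene alone. They were read on 9 whole-transcript mouse arrays in 3 groups of 3. The first group, AS line, is hepatic angiosarcoma cell line material, grown out of endothelial cells taken from the livers of tumour-bearing Notch1 knockout animals and kept in culture until a uniform, atypically growing population remained. Its samples are labelled biological replicates, and the labels do not say whether they are 3 lines or repeated cultures. They are called AS lines 1, 2 and 3 here. The p-values rest on the spread among these samples and among the livers compared, and need not hold for other lines or tumours. The KO livers came from MxCre Notch1 lox/lox mice, in which Cre, driven by an interferon-inducible promoter and so not limited to 1 cell type, removes the Notch1 exon for the signal peptide. The WT livers came from Notch1 lox/lox mice without Cre. All mice had the C57Bl/6 background, and both liver groups received 300 µg of polyinosinic-polycytidylic acid, the inducer of Cre, at 4 weeks of age on days 0, 3 and 6, so the WT livers were exposed to it as well. Because only the KO mice carried MxCre, effects of Cre and of Notch1 loss cannot be told apart. The labels name the tissue as liver, while the extraction text shared by all arrays speaks of PHH without explanation, so whether whole liver was extracted is not settled.

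Values are log2 expression, and a difference of 1 is a 2-fold change. A gene was called when limma's Benjamini-Hochberg adjusted p over all 19938 genes was under 0.05. Notch1 lay between 7.83 and 8.75 in the AS lines and between 7.84 and 8.75 in the KO livers, against 11.02 to 11.71 in the WT livers. The endothelial label of the lines was not borne out by their markers. The mean of 15 endothelial genes was 6.52 to 6.62 in the AS lines, against 11.24 to 11.81 in the KO livers and 11.28 to 11.38 in the WT livers, and all 15 fell relative to either liver group. The junctional cadherin Cdh5 stood at 5.45 to 5.66 in the lines, whereas Krt19, a keratin of bile duct epithelium, stood at 11.82 to 12.18, and 6 of 8 bile duct genes rose relative to either liver group. Mesothelial genes rose in part: of 6, 3 were called higher relative to the KO livers and 2 relative to the WT livers, and 0 lower. Albumin (Alb) read 12.31 to 13.67 in the lines, but the 11 hepatocyte genes as a list did not rise: 0 were called higher and 2 lower relative to the KO livers (median -1.91), and 0 higher and 6 lower relative to the WT livers (median -2.93). Beside these marker counts, 11.4% of all genes were called higher and 10.1% lower against the KO livers. Against the WT livers the shares were 17.6% and 11.1%. As a guide to what a dim value is, 95% of 1015 olfactory receptor genes had group means of at most 5.89 in the AS lines, 5.90 in the KO livers and 6.18 in the WT livers; the background of any single probe set is not known.

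VEGF-A, made by many cells including hepatocytes, binds KDR (VEGFR2), the main signalling receptor of blood endothelium, and FLT1 (VEGFR1), which binds tightly and signals weakly. PGF binds FLT1, and VEGF-C acts through FLT4 (VEGFR3), best known from lymphatic vessels and also found on the sinusoidal endothelium of liver. TEK (TIE2) is switched on by ANGPT1 from supporting cells and is mostly blocked by ANGPT2 from endothelium, and TIE1 is its partner without a strong ligand of its own.

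The 5 receptor genes differed together between lines and livers, so the sequences before their transcription starts are shown. Each run is the 250 bases ahead of the start given by RefSeq on GRCm38.p6, written 5′ to 3′ on the gene's strand; capitals mark GGAA, the core bound by ETS factors, or TTCC, the same core on the other strand. The windows are Kdr at chr5:75978456-75978705 (minus strand), Flt1 at chr5:147726012-147726261 (minus), Flt4 at chr11:49609429-49609678 (plus), Tek at chr4:94739039-94739288 (plus) and Tie1 at chr4:118489850-118490099 (minus).
Kdr: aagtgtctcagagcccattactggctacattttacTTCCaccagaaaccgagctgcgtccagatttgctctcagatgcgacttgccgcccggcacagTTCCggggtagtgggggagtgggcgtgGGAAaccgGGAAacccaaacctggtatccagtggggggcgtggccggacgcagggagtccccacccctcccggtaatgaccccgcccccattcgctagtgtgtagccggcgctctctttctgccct
Flt1: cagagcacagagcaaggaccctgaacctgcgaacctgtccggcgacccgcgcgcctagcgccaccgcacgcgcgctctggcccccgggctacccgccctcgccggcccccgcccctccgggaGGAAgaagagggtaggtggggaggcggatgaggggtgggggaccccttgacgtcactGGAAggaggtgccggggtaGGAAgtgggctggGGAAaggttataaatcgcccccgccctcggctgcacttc
Flt4: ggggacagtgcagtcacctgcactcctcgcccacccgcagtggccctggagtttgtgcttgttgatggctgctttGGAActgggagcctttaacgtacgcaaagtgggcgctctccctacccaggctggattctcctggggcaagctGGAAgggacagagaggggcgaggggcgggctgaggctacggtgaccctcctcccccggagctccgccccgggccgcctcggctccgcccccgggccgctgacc
Tek: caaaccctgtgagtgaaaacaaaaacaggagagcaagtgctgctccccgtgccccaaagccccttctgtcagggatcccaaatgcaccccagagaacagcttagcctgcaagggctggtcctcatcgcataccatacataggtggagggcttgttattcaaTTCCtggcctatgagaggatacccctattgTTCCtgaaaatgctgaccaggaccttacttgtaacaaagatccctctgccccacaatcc
Tie1: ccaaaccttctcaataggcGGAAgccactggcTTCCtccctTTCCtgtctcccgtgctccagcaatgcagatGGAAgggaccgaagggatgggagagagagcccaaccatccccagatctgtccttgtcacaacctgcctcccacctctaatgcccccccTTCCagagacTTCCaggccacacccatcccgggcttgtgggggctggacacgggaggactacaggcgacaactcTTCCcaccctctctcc
Tie1 held 7 matches, a number reached by 3.82% of 32851 such windows. Kdr and Flt1 held 4 each (33.4% of windows have at least as many) and Flt4 and Tek 2 each (76.8%). No 2 matches overlapped. The core occurs in 93.4% of all windows, with a median of 3 matches, so its presence sets none of the receptors apart. RefSeq windows were found for 8 of the 10 genes; the 2 windows of Pgf held 0 matches, that of Vegfc 1, and those of Vegfa 6 and 2.

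All 5 receptors fell in the AS lines relative to the KO livers and relative to the WT livers, with no overlap of arrays. Among all genes, 21.4% were called against the KO livers and 10.1% were called lower, and 16.7% were lower with no overlap; against the WT livers 28.7% were called, 11.1% lower, and 19.5% were lower with no overlap. The median of the receptors was -5.62 against the KO livers, where that of the 15 endothelial genes was -4.87 and that of all genes 0.05. The median of 10 genes of liver sinusoidal endothelium was lower still, at -6.52. In samples of a tissue, fewer cells of a type and less RNA per cell cannot be told apart, and the lines also differ from the livers by being cultured.

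Kdr (probe set 10530692) read 5.89, 5.65 and 5.45 in AS lines 1, 2 and 3, against 12.69, 12.51 and 12.83 in the KO livers and 12.49, 12.46 and 12.56 in the WT livers. All 3 lines lay at or below the olfactory receptor guide, and the KO and WT livers overlapped. The log2 difference was -7.01 against the KO livers (SE 0.148, limma adjusted p = 2.86e-05), which leaves 0.774% of the liver value, and -6.84 against the WT livers (SE 0.131, limma adjusted p = 7.57e-06).

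Tek (probe set 10505954), the angiopoietin receptor, read 5.13, 5.47 and 5.49 in the AS lines, against 11.93, 11.74 and 12.15 in the KO livers and 11.99, 11.88 and 12.08 in the WT livers. The lines were all dim and the liver groups overlapped. Its log2 difference was -6.58 against the KO livers (SE 0.154, limma adjusted p = 3.47e-05) and -6.62 against the WT livers (SE 0.130, limma adjusted p = 8.08e-06). Its partner Tie1 (probe set 10515771) read 5.74, 5.67 and 5.94 in the AS lines, against 11.61, 11 and 11.59 in the KO livers and 10.83, 10.97 and 10.83 in the WT livers. Tie1 was thus near or below the olfactory receptor guide in every line. It was higher in each KO liver than in any WT liver, as were 19.2% of all genes (limma adjusted p = 0.179). Its log2 difference was -5.62 against the KO livers (SE 0.194, limma adjusted p = 9.33e-05) and -5.09 against the WT livers (SE 0.106, limma adjusted p = 8.58e-06).

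Flt4 (probe set 10375578), the VEGF-C receptor, stayed above the dim range in the lines. It read 8.11, 9.43 and 9.14 in the AS lines, against 12.64, 12.40 and 12.69 in the KO livers and 12.05, 12.10 and 12.10 in the WT livers. The lowest line was line 1, and all 3 lay below every liver. The log2 difference of -3.68 (SE 0.356, limma adjusted p = 0.00233) left 7.78% of the KO liver value, and that of -3.19 (SE 0.342, limma adjusted p = 0.00188) left 10.9% of the WT liver value.

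Flt1 (probe set 10535807), which encodes both a membrane receptor and a soluble decoy that this probe set does not separate here, read 6.42, 7.97 and 6.18 in the AS lines, against 11.69, 11.10 and 11.52 in the KO livers and 11.42, 11.34 and 11.44 in the WT livers. Line 2 was well above the other lines, and the liver groups overlapped. The log2 difference of Flt1 was -4.58 against the KO livers (SE 0.508, limma adjusted p = 0.00359) and -4.54 against the WT livers (SE 0.475, limma adjusted p = 0.00172).

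The 95% interval of the Kdr difference against the KO livers, -7.39 to -6.64, did not meet that of Flt4, -4.58 to -2.79, or that of Flt1, -5.86 to -3.30. The within-array difference of Kdr minus Flt4 changed by -3.33 log2 units in the lines relative to the KO livers, and by -3.65 relative to the WT livers; it is read only as a change, since levels of different probe sets are not comparable. An exact 2-sided permutation test gave p = 0.1 for each, the smallest that 3 against 3 arrays allow (adjusted p = 0.129 over 9 such differences of 3 gene pairs). No such test could pass 0.05 in this design.

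**Figure D1:**
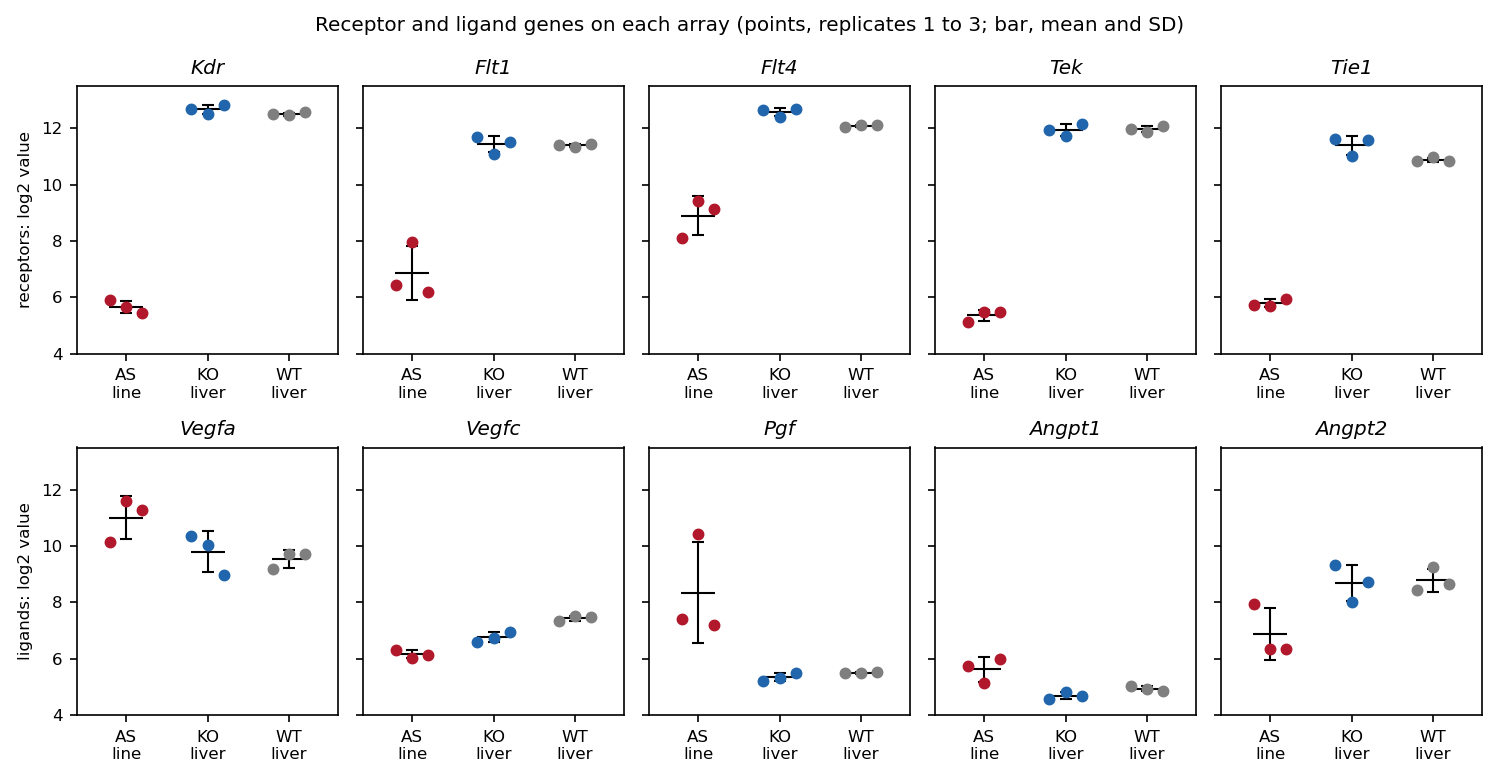
Log2 value of each receptor gene (upper row) and ligand gene (lower row) on the 9 arrays; points are replicates 1 to 3 from left to right, the bar the group mean and its SD. Kdr, Tek and Tie1 lie between 5.13 and 5.94 in all AS lines, Flt4 between 8.11 and 9.43, and Pgf reaches 10.44 in line 2.

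The ligands did not move as a group: 1 of 5 rose and 1 fell relative to the KO livers, and 1 rose and 2 fell relative to the WT livers. Among all genes 11.4% were called higher and 10.1% lower against the KO livers, and 17.6% higher and 11.1% lower against the WT livers. The ligand that rose relative to the KO livers was Angpt1, whose values lay mostly in the dim range. At an unadjusted p under 0.05 there were 9 of the 10 receptors and ligands against the KO livers, beside 33.9% of all genes, and 10 of the 10 against the WT livers, beside 39.9% of all genes. The livers of both comparisons were set against the same 3 lines, so the comparisons share those arrays.

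Vegfa (probe set 10451198), the principal ligand of KDR, read 10.15, 11.60 and 11.27 in the AS lines, against 10.36, 10.05 and 8.98 in the KO livers and 9.17, 9.72 and 9.72 in the WT livers. Every line was above every WT liver, but line 1 was below KO liver 1. Vegfa rose by 1.47 relative to the WT livers (SE 0.405, limma adjusted p = 0.0440), whereas the difference of 1.21 from the KO livers (SE 0.524, limma adjusted p = 0.179) had a 95% interval of -0.11 to 2.53. The rise over the WT livers lost its call without AS line 2 (limma adjusted p = 0.0922), AS line 3 (0.118), or any 1 of the WT livers (0.137, 0.106 and 0.103), and with quantile normalization repeated (0.0534).

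Pgf (probe set 10401607), the ligand of FLT1, read 7.41, 10.44 and 7.19 in the AS lines, against 5.22, 5.31 and 5.50 in the KO livers and 5.48, 5.49 and 5.53 in the WT livers. All lines were above all livers, where Pgf was dim, and line 2 was far above the others. Over all genes 24.1% were higher in the lines with no overlap against the KO livers and 28.3% against the WT livers. The wide spread of the lines left the differences of 3.00 from the KO livers (SE 0.906, limma adjusted p = 0.0746) and 2.85 from the WT livers (SE 0.880, limma adjusted p = 0.0616) outside the threshold. Without line 2 the difference was smaller and passed it, at 1.96 (limma adjusted p = 0.00272) against the KO livers and 1.80 (limma adjusted p = 0.000917) against the WT livers. Pgf was also called against the KO and WT livers with all 9 arrays in 1 fit (limma adjusted p = 0.0215 and 0.0227), after removal of dim genes (0.0303 and 0.0254) and with array weights (0.0333 and 0.0214), and against the WT livers with 75th percentile scaling (0.0466).

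Vegfc (probe set 10571788), the ligand of FLT4, read 6.31, 6.04 and 6.12 in the AS lines, against 6.59, 6.74 and 6.96 in the KO livers and 7.34, 7.50 and 7.47 in the WT livers. The 3 groups followed each other without overlap, all at low to modest brightness. The lines lay just above the olfactory receptor guide of 5.89. Over all genes, 16.7% were lower without overlap in the lines than in the KO livers. In the KO livers 11.1% were lower without overlap than in the WT livers. The log2 difference of Vegfc was -0.60 against the KO livers (SE 0.128, limma adjusted p = 0.0269) and -1.28 against the WT livers (SE 0.107, limma adjusted p = 0.000781). The call against the KO livers ended without AS line 2 or 3 (limma adjusted p = 0.0724 and 0.0730), without KO liver 2 or 3 (0.0703 and 0.0775), with quantile normalization repeated (0.0612) and with array weights (0.0501).

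Angpt2 (probe set 10577315), stored and released by endothelium, read 7.94, 6.33 and 6.35 in the AS lines, against 9.31, 8.03 and 8.74 in the KO livers and 8.43, 9.25 and 8.66 in the WT livers. Line 1 came close to KO liver 2, and the other lines lay well below. Angpt2 fell by 1.90 (SE 0.496, limma adjusted p = 0.0372) relative to the WT livers, and its difference of -1.82 (SE 0.563, limma adjusted p = 0.0796) from the KO livers was outside the threshold. The fall against the WT livers was not called without AS line 2 or 3 (limma adjusted p = 0.0912 and 0.101) or without any 1 of the WT livers (0.0794, 0.124 and 0.101). The difference from the KO livers was called without AS line 1, at -2.35 (limma adjusted p = 0.0249), with all 9 arrays in 1 fit (0.0309), after removal of dim genes (0.0350) and with array weights (0.0205).

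Angpt1 (probe set 10428376), the activating ligand of TEK, read 5.75, 5.12 and 6.00 in the AS lines, against 4.58, 4.81 and 4.67 in the KO livers and 5.04, 4.92 and 4.85 in the WT livers. Only line 3 exceeded the olfactory receptor guide, so these values lie mostly in the dim range. Angpt1 rose by 0.94 (SE 0.239, limma adjusted p = 0.0465) relative to the KO livers, and the difference of 0.68 (SE 0.234, limma adjusted p = 0.0817) from the WT livers was outside the threshold. The call against the KO livers ended without AS line 1 or 3 (limma adjusted p = 0.113 and 0.0904), without any 1 of the KO livers (0.152, 0.0941 and 0.138), with scaling to the 75th percentile (0.0524) and with quantile normalization repeated (0.0523). The difference from the WT livers was called without AS line 2, at 0.93 (limma adjusted p = 0.00786), with all 9 arrays in 1 fit (0.0362) and with array weights (0.0313).

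**Figure D2:**
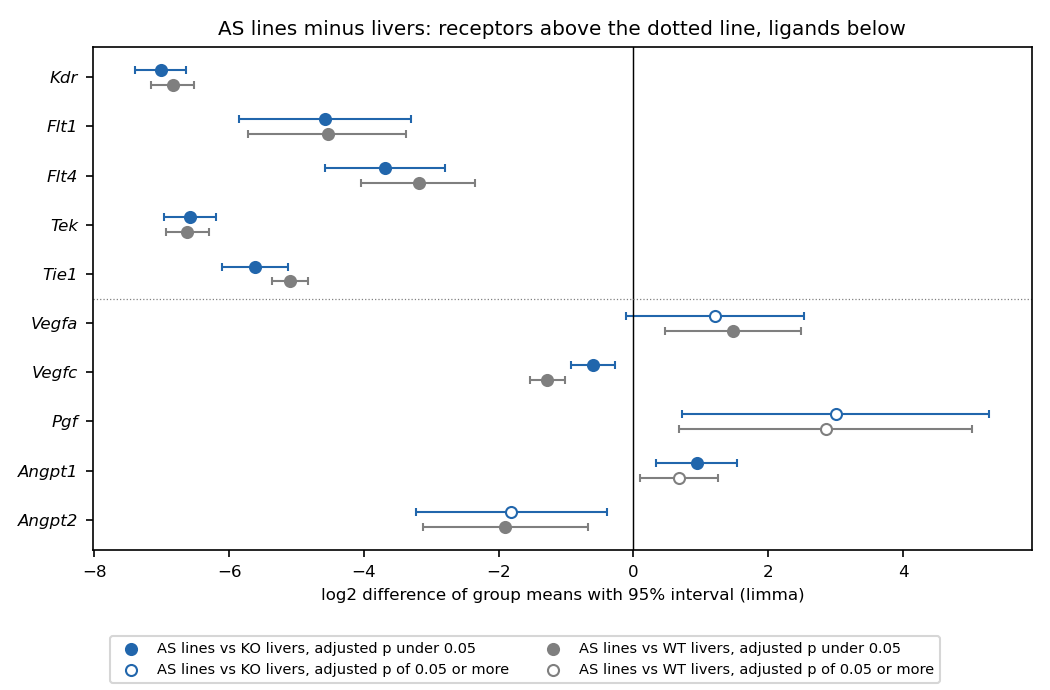
Log2 difference of group means with its 95% interval from limma, AS lines minus KO livers (blue) and AS lines minus WT livers (grey); filled points have an adjusted p under 0.05. The 5 receptors are filled in both comparisons, from -7.01 for Kdr to -3.19 for Flt4, and the ligands lie from -1.90 to 3.00.

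The 3 lines were not alike. Line 2 had the highest value of Flt1, Flt4, Vegfa and Pgf among the lines. Line 1 had the lowest Flt4 and Vegfa and the highest Angpt2. The proliferation marker Mki67 read 10.77, 6.79 and 8.88 in lines 1, 2 and 3, and the mean of 11 hepatocyte genes 8.48, 9.63 and 8.29. Whether these levels have a part in the differences between lines was not tested.

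Of 129 further genes on 7 lists (co-receptors, signal relay, responsive genes, the TIE pathway, oxygen sensing, related kinases and endothelial transcription factors), 12 rose and 49 fell in the AS lines relative to the KO livers, where 11.4% of all genes rose and 10.1% fell. The median of the 129 was -0.66, beside 0.05 over all genes. Relative to the WT livers 19 rose and 49 fell, where 17.6% of all genes rose and 11.1% fell, with a median of -0.43 beside 0.02 over all genes.

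Relative to the KO livers 11.4% of all genes rose and 10.1% fell. Of 11 further listed genes, mostly ligands and co-receptors but also Cav1, 2 rose and 3 fell. The neuropilins, co-receptors that bind VEGF with KDR (Nrp1) or FLT4 (Nrp2), were among those that fell. Nrp1 read 8.45, 5.61 and 7.97 in the AS lines, against 11.73, 11.80 and 12.04 in the KO livers, a log2 difference of -4.51 (limma adjusted p = 0.0132). Nrp2 read 8.90, 6.23 and 6.41 in the AS lines, against 11.42, 11.28 and 11.59 in the KO livers, a log2 difference of -4.25 (limma adjusted p = 0.0149). Line 2, with the highest Flt1 and Flt4 of the lines, had the lowest Nrp1 and Nrp2, both in or near the dim range. Both calls ended without KO liver 1 (limma adjusted p = 0.0554 and 0.0625) or KO liver 3 (0.0581 and 0.0634). The semaphorin Sema3e, a ligand of the plexin Plxnd1 that repels endothelial cells, rose to 9.44, 9.01 and 8.61 in the AS lines, against 5.47, 5.27 and 5.39 in the KO livers (log2 difference 3.64, limma adjusted p = 0.000468).

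In the TIE and angiopoietin list 5 of 17 genes fell and 0 rose relative to the KO livers, beside 10.1% and 11.4% of all genes. Ptprb, the phosphatase VE-PTP that silences TEK, read 9.51, 7.85 and 8.97 in the AS lines, against 12.79, 12.91 and 13.06 in the KO livers, and fell by 4.14 (limma adjusted p = 0.00290). Like Flt4, it remained above the dim range in all lines. Klf2, a shear-responsive factor raised downstream of ANGPT1, fell by 3.79 (limma adjusted p = 5.11e-05), and the integrin subunit Itga5 fell by 2.00 (limma adjusted p = 0.00859). The adaptor gene Grb14 rose relative to the WT livers by 1.61 (limma adjusted p = 0.0131, and 0.0688 with all 9 arrays in 1 fit).

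Of 22 genes that relay the signal of VEGF receptors, 4 rose and 8 fell relative to the KO livers, beside 11.4% and 10.1% of all genes. Nos3, the endothelial nitric oxide synthase, fell by 3.46 (limma adjusted p = 0.000203), the kinase Prkcb fell by 3.46 (limma adjusted p = 0.00138) and the kinase Fyn fell by 2.86 (limma adjusted p = 0.000730). Of 19 genes known to respond to VEGF, 2 rose, close to the 11.4% of all genes, and 10 fell, beside 10.1% of all genes. These included the orphan receptor Nr4a1, at 7.20, 8.04 and 7.65 in the AS lines, against 11.69, 12.03 and 11.42 in the KO livers (log2 difference -4.08, limma adjusted p = 0.000613). The Notch ligand Dll4 fell by 3.67 (limma adjusted p = 0.000853) and the urokinase gene Plau fell by 3.99 (limma adjusted p = 0.00482). Of these genes, F3, the starter of coagulation, rose relative to the KO livers by 3.55 (limma adjusted p = 0.00889) and relative to the WT livers by 3.07 (limma adjusted p = 0.00312).

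The oxygen sensing list, which holds control genes of Vegfa, had 0 of 17 genes higher and 2 lower relative to the KO livers, and a fall in 2 of 17 is close to the 10.1% of all genes; 6 of the 17 differences were above 0 and the median was -0.12. Adrenomedullin (Adm), a vasodilator peptide induced by hypoxia, fell by 3.04 (limma adjusted p = 0.00935) and the demethylase Kdm3a fell by 1.41 (limma adjusted p = 0.00715). Relative to the WT livers 2 rose and 2 fell, beside 17.6% and 11.1% of all genes. The glucose transporter Slc2a1 was among those that rose, at 11.43, 12.33 and 11.60 in the AS lines, against 10.16, 10.60 and 10.11 in the WT livers (log2 difference 1.5, limma adjusted p = 0.0115, and 0.0511 without WT liver 3). The glycolytic gene Pgk1 rose by 0.99 (limma adjusted p = 0.0329), a call lost without AS line 1 or 2 (limma adjusted p = 0.0691 and 0.0744) or any 1 of the WT livers (0.0815, 0.0845 and 0.0617).

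The list of other receptor tyrosine kinases held 21 genes, including the Eph receptor ligand Efnb2. Relative to the KO livers 3 rose, close to the 11.4% of all genes, and 7 fell, beside 10.1% of all genes. Kit fell by 4.42 (limma adjusted p = 0.000226), and the macrophage receptor Csf1r fell by 4.99 (limma adjusted p = 0.000276), as did all 11 Kupffer cell and macrophage markers. The hepatocyte growth factor receptor Met read 10.84, 9.53 and 10.14 in the AS lines, against 6.07, 8.61 and 5.47 in the KO livers, and rose by 3.45 (limma adjusted p = 0.0481). Its call was lost without any 1 of AS lines 1 to 3 (limma adjusted p = 0.120, 0.0827 and 0.114) and without KO liver 1 or 3 (0.158 and 0.132). The collagen receptor Ddr1 rose relative to the WT livers by 3.02 (limma adjusted p = 0.00127). Among 22 endothelial transcription factors the median was -2.04 relative to the KO livers. Of the 22, 1 rose and 14 fell, beside 11.4% and 10.1% of all genes. The repressor Bcl6b had the largest difference of them, -4.64 (limma adjusted p = 0.000479). The ETS factors Erg and Fli1, which keep endothelial genes active, had log2 differences of -4.53 (limma adjusted p = 0.000406) and -4.33 (limma adjusted p = 9.77e-05).

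**Figure D3:**
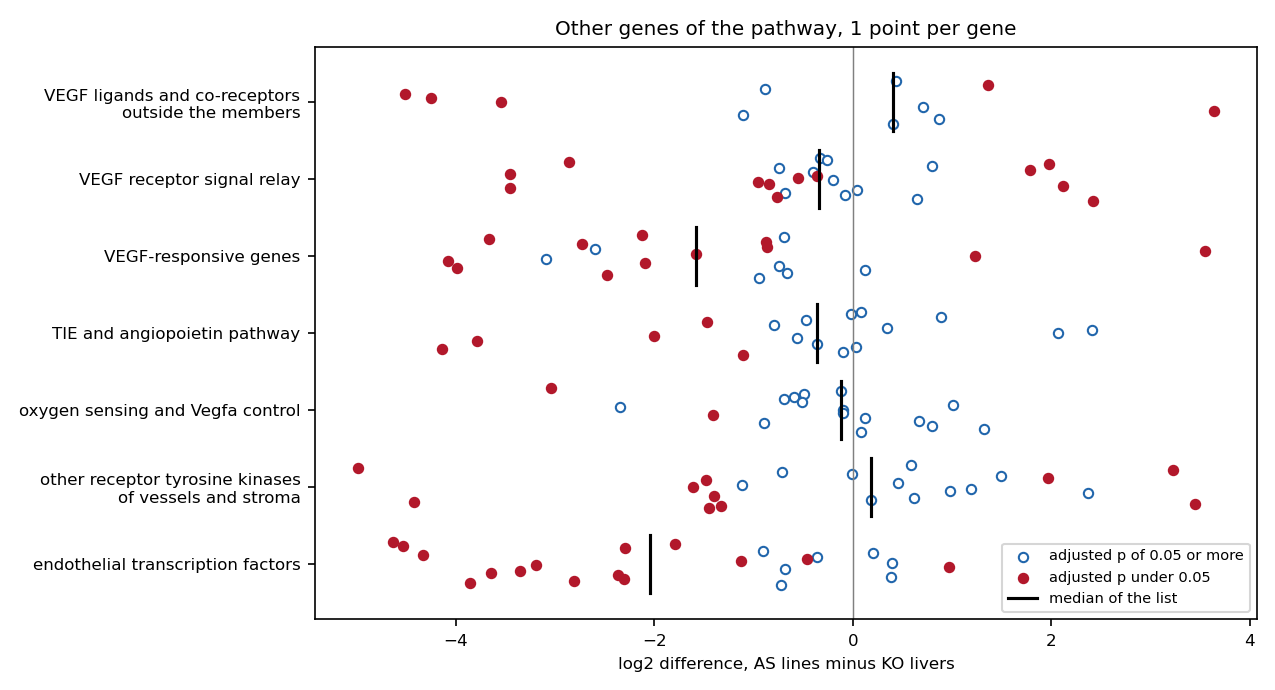
Log2 difference of each further pathway gene, AS lines minus KO livers, by list; filled points have an adjusted p under 0.05 and black bars mark each list's median. The endothelial transcription factors (median -2.04) and VEGF-responsive genes (median -1.58) lie mostly to the left of 0.

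The KO livers, with the lower Notch1 values, and the WT livers were compared next. Between them 0 of the 10 genes passed the threshold in limma, as did 0% of all genes. At an unadjusted p under 0.05 there were 4 of the 10, namely Flt4 and Tie1, higher in the KO livers, and Vegfc and Angpt1, lower, while 22.5% of all genes reached it. The same 4 had groups that did not overlap, Angpt1 at dim values only. Over all genes 19.2% were higher in this way and 11.1% lower. Such separations were thus common over all genes.

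Flt4 was above every WT liver in each KO liver, by a log2 difference of 0.49 (SE 0.0922, 95% interval 0.26 to 0.72, limma adjusted p = 0.102), and Tie1 by 0.52 (SE 0.178, 95% interval 0.08 to 0.97, limma adjusted p = 0.179). Without KO liver 2 both were called, Flt4 at 0.58 (limma adjusted p = 0.0204) and Tie1 at 0.72 (limma adjusted p = 0.0191). In that fit 1949 of all 19938 genes were called, 1671 of them higher. Vegfc differed by -0.67 (SE 0.111, 95% interval -0.95 to -0.40, limma adjusted p = 0.0995) and Angpt1 by -0.25 (SE 0.0903, limma adjusted p = 0.192). Angpt1 lay below the olfactory receptor guide in every KO and WT liver, so its difference was one between dim values. With array weights Flt4, Tie1, Vegfc and Angpt1 were called (limma adjusted p = 0.00945, 0.0141, 0.0105 and 0.0276), as were 5744 of all 19938 genes.

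Kdr, Flt1 and Tek differed by less than their errors allow to call. The log2 difference of Kdr was 0.17 (95% interval -0.06 to 0.41, limma adjusted p = 0.333), that of Flt1 0.03 (95% interval -0.36 to 0.43, limma adjusted p = 0.905) and that of Tek -0.04 (95% interval -0.35 to 0.26, limma adjusted p = 0.840). For Kdr, Flt1 and Tek these intervals leave out a 2-fold change in either direction. Scaling each array to its 75th percentile, which moved the median of all genes to -0.18, turned Kdr to -0.01 and Flt1 to -0.15. The intervals of Vegfa (0.26, from -0.70 to 1.23) and Angpt2 (-0.08, from -1.02 to 0.85) were wider, since both varied among animals of 1 genotype. Pgf, dim in all livers, differed by -0.16 (95% interval -0.37 to 0.06).

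KO liver 2 had the lowest value of Kdr, Flt1, Flt4, Tek, Tie1 and Angpt2 among the KO livers. The mean of the 15 endothelial genes was 11.75, 11.24 and 11.81 in KO livers 1, 2 and 3, against 11.38, 11.28 and 11.31 in the WT livers. The mean of 11 hepatocyte genes was 10.50, 12.56 and 9.32 in the KO livers, against 11.40, 12.45 and 12.38 in the WT livers, and that of 9 genes of dividing cells 9.48, 8.11 and 9.0 in the KO livers, against 7.13, 7.24 and 7.34 in the WT livers. Among the KO livers, KO liver 2 was highest in the hepatocyte list and lowest in the lists of general endothelial genes and of dividing cells. Other endothelial lists did not follow: 10 sinusoidal genes averaged 12.55, 12.56 and 12.80 in KO livers 1, 2 and 3, against 12.63, 12.45 and 12.47 in the WT livers, and 5 lymphatic genes 8.16, 8.35 and 8.28 in the KO livers, against 8.26, 8.62 and 8.27 in the WT livers. The part of these levels in the receptor values was not tested.

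**Figure D4:**
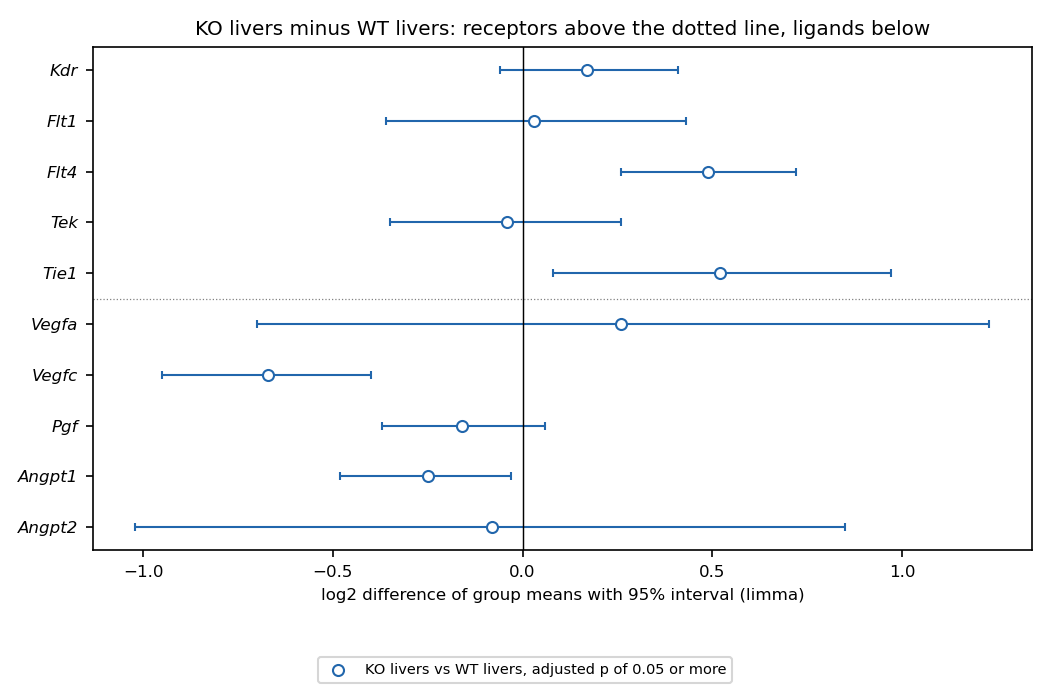
Log2 difference of group means with its 95% interval from limma, KO livers minus WT livers; open points have an adjusted p of 0.05 or more. All 10 points are open, and the intervals of Flt4, Tie1, Vegfc and Angpt1 leave out 0 before adjustment over all genes.

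**Figure D5:**
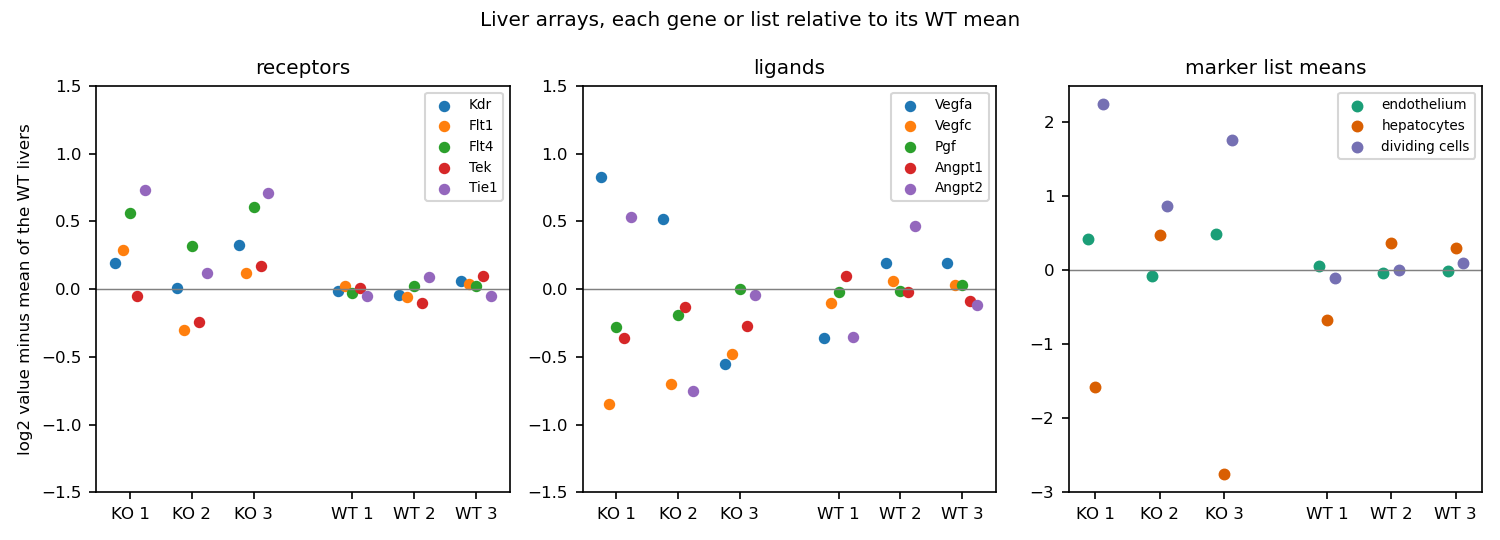
Log2 value minus the mean of the WT livers on each liver array, for receptors, ligands and the means of 3 marker lists (the third panel has a wider axis). The WT livers lie close to 0 for receptors, and KO 2 lies below KO 1 and KO 3 for all 5.

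The other pathway genes gave 0 of 129 past the threshold in limma between KO and WT livers, with 32 at an unadjusted p under 0.05, close to the 22.5% of all genes, and a median of 0.11. Plau, the urokinase gene, read 11.47, 10.18 and 11 in the KO livers, against 9.07, 8.27 and 8.45 in the WT livers, a difference of 2.29 (limma adjusted p = 0.0995). The phosphatase gene Dusp5, which is switched on by growth factor signals, read 9.70, 9.87 and 9.78 in the KO livers, against 10.73, 10.53 and 10.50 in the WT livers, a difference of -0.81 (limma adjusted p = 0.0995). Neither gene overlapped between the genotypes, as was the case for 19.2% of all genes upwards and 11.1% downwards. Bcl6b differed by 1.23 (limma adjusted p = 0.102), the venous factor Nr2f2 by 0.86 (limma adjusted p = 0.102) and the homeobox gene Hhex by 0.73 (limma adjusted p = 0.116). Among receptor kinases the differences were -0.41 for Fgfr1 (limma adjusted p = 0.102), -0.68 for Fgfr3 (limma adjusted p = 0.102) and -0.86 for the insulin receptor Insr (limma adjusted p = 0.117). In the signal relay they were 0.53 for the calcineurin subunit Ppp3ca, 0.34 for the lipid kinase subunit Pik3ca and 0.25 for paxillin (Pxn), with limma adjusted p of 0.106, 0.116 and 0.140. Nrp2 differed by 0.30 (limma adjusted p = 0.217), the semaphorin receptor Plxnd1 by 0.26 (limma adjusted p = 0.378) and the lymphatic ligand Vegfd by -0.23 (limma adjusted p = 0.210). Of the TIE list, Itga5 differed by 0.47 (limma adjusted p = 0.129), Angptl6 by -0.78 (limma adjusted p = 0.204) and the transcription factor Foxo1, a target of TEK signalling, by 0.27 (limma adjusted p = 0.301). Of the oxygen sensing list, Kdm3a differed by 0.62, Vhl by 0.37 and the oxygen sensor Egln1 by 0.26, with limma adjusted p of 0.151, 0.203 and 0.267. The homeobox gene Hlx, of the VEGF-responsive list, differed by 0.68 (limma adjusted p = 0.140). Without KO liver 2 the calls included Plau, Dusp5, Bcl6b, Nr2f2 and Itga5 (limma adjusted p = 0.0209, 0.0211, 0.0191, 0.0415 and 0.0201), and Fgfr3, Insr, Kdm3a, Pik3ca and Ppp3ca (0.0247, 0.0217, 0.0252, 0.0357 and 0.0261). Plxnd1 was called there too, at 0.44 (limma adjusted p = 0.0377). That fit called 25 of the 129 genes and 1949 of all 19938.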

How the data were processed

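Total RNA of 9 samples was labelled with a whole-transcript kit and hybridised to mouse arrays, per the labels' protocols. The authors deposited log2 values for each probe set, made with RMA and the oligo package, per the submitters' processing notes; the sources used here do not give versions. RMA gives all arrays nearly 1 distribution (medians 6.53 to 6.63), so a change common to most genes would be hidden, and there are no detection calls. Of 35556 probe sets, 21789 had 1 gene symbol in the platform annotation, 1621 several and 12146 none; the probe set of highest mean over 9 arrays was kept, which left 19938 genes. No filter on low values was applied, so all 10 genes were tested. The number of arrays limits the precision.

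Each pair of groups was fitted on its own 6 arrays with limma 3.58.1 in R 4.3.3 (lmFit, eBayes, 2-sided), with Benjamini-Hochberg adjustment over all genes. Log2 differences are differences of group means. The code was tested on simulated data. Exact permutation tests used scipy 1.17.1, and figures matplotlib 3.10.9. The genes and lists were chosen with earlier results of these data known; the rule names all 10 genes and, per list, the 3 genes of largest change past the threshold, or of smallest p where none passed, and the 3 genes closest in pattern to each of the 10. Marker genes are named outside it. The alternatives tried were all 9 arrays in 1 fit, a replicate block, an intensity trend with robust prior, leaving out dim genes, 75th percentile scaling, repeated quantile normalization, mean of probe sets, array weights, leaving out each replicate, and an adjusted p under 0.10. Promoter sequences are RefSeq's on GRCm38.p6.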

Additional observations from a re-analysis of the deposited data

How the results depend on the processing

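The 5 receptors were called lower in the AS lines, against either liver group, under every alternative run, with log2 differences from -7.13 to -3.29 against the KO livers and -7.05 to -2.80 against the WT livers. The number of the 10 genes called, 7 against the KO livers and 8 against the WT livers, ranged from 5 to 7 and from 6 to 8 on leaving out 1 replicate, and from 5 to 9 and from 7 to 10 under the other alternatives. Which ligands were called varied; the settings other than the replicate block and the adjusted p under 0.10 are given with each ligand. Correlations over all genes of the deviations of same-numbered samples from their group means were 0.24, 0.34 and 0.07 between AS lines and KO livers, 0.04, 0.17 and -0.16 between AS lines and WT livers and 0.31, 0.43 and -0.39 between KO and WT livers. They differed in sign or size within each comparison. In each comparison not every sample correlated best with its own number, so the numbers were not taken to pair samples. For instance, KO liver 3 correlated at 0.20 with AS line 1 and at 0.07 with AS line 3. With the replicate block, 6 of the 10 were called against the KO livers, 7 against the WT livers and 0 between KO and WT livers: the adjusted p against the KO livers was 0.0814 for Vegfc, 0.0957 for Angpt1, 0.0253 for Angpt2 and 0.102 for Met, and against the WT livers 0.0830 for Angpt2 and 0.0980 for Pgk1. Of the 129 other pathway genes 61 and 68 were called, and 48 to 62 and 49 to 71 on leaving out 1 replicate. Between KO and WT livers the 0 of 10 became 4 with array weights (Flt4, Tie1, Vegfc and Angpt1), 1 at an adjusted p under 0.10 (Vegfc) and 0 to 2 on leaving out 1 replicate; the 0 of 129 became 54, 2 and 0 to 25. Over all genes the count of 0 moved to 5744 with array weights, 366 at an adjusted p under 0.10, 1949 without KO liver 2, 60 without WT liver 1 and 2 with all 9 arrays in 1 fit. Against the KO livers, 4275 genes were called over all genes, and 2281 or 2310 without KO liver 1 or 3; against the WT livers 5715, and 3397 or 3556 without WT liver 2 or 3. Signs turned for small differences between KO and WT livers: Kdr to -0.01 and Flt1 to -0.15 with 75th percentile scaling, which shifts all genes alike and moved their median to -0.18, Tek to 0.06 with array weights, and on leaving out 1 replicate Flt1 ranged from -0.09 to 0.20, Tek from -0.15 to 0.06, Vegfa from -0.02 to 0.67 and Angpt2 from -0.39 to 0.25. Apart from that shift, the causes were not tested. Leaving out dim genes dropped Angpt1 from all 3 comparisons, Vegfc from that of AS lines with KO livers and Pgf from that of KO with WT livers. Nothing under the dim range can be ranked, so folds of Kdr, Tek, Tie1, Pgf and Angpt1 against it may understate the difference.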

Other observations

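The genes whose pattern over the 9 arrays was closest to each receptor were found by the root mean square difference of log2 values after centring each gene on its own mean. The nearest to Kdr were Fcgr2b (0.14), Stab2 (0.15) and Gpr182 (0.20), all on the list of sinusoidal endothelium markers used here. The nearest to Tek were Prkch (0.16), Cyyr1 (0.16) and Eng (0.17), and those to Tie1 were Clec14a (0.15), Npr1 (0.17) and Gimap4 (0.17). For Flt4 they were Nr5a2 (0.18), Tmc8 (0.23) and Arhgap45 (0.24), and for Flt1, with a looser match, Rtp4 (0.27), Esam (0.28) and Unc93b1 (0.37). Nr5a2, a nuclear receptor of hepatocytes and other cells, averaged 6.12 in the AS lines, 9.56 in the KO livers and 9.25 in the WT livers. Among the ligands, Vegfa was closest to Mfsd6 (0.21), Ttyh2 (0.23) and Ccdc28a (0.32), Vegfc to Lypd6 (0.16), Col13a1 (0.18) and Tnfrsf11b (0.19), and Pgf to Bco1 (0.31), Entpd2 (0.36) and Bst1 (0.39). Angpt1, mostly dim, was closest to Mrgprb2 (0.12), Tet1 (0.12) and Map6 (0.13), and Angpt2 to Csrp2 (0.37), A630072M18Rik (0.38) and Swap70 (0.39). These distances rest on 9 arrays and mostly on the step between lines and livers, which very many genes share.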
